A study of Mus musculus with 20 samples.

Results

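The interferon-stimulated genes described here were 44 genes chosen by symbol from the 43346 genes of a deposited count table, and each symbol matched a gene. They encode proteins that cells make after sensing interferon: sensors of foreign or misplaced nucleic acid, transcription factors, antiviral effectors and the chemokine Cxcl10. The libraries were bulk RNA-seq of mouse cortex, 20 in all and 5 in each of 4 groups: control at 3 months, knockin (KI) at 3 months, control at 10 months and KI at 10 months. The cortex of all 4 groups came from mice hemizygous for 5xFAD (5xFAD+/-), human amyloid precursor and presenilin transgenes with familial Alzheimer's disease mutations that the neuronal Thy1 promoter drives. Control mice were Abca7WT/WT. KI mice carried an alanine-to-serine substitution knocked into Abca7, a lipid transporter gene linked to Alzheimer's disease risk. The protocol names heterozygous (Abca7WT/KI) and homozygous (Abca7KI/KI) animals, which the label KI does not tell apart. All were male littermates per the protocol. Because no group lacked 5xFAD, age and amyloid load cannot be told apart in these data. Nothing in the labels ties every library to an animal of its own, so that the tests measure only spread between libraries.

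Type I interferons bind the receptor made of Ifnar1 and Ifnar2, whose kinases Jak1 and Tyk2 phosphorylate Stat2. A complex that contains Stat2 and Irf9 binds interferon-stimulated response elements (ISRE) in promoters, while gamma-activated sites (GAS) are bound after interferon-gamma. In the brain, microglia, astrocytes and vessels can all express these genes, and a subset of microglia with high levels of them is known from amyloid models and aged mice.

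Promoter stretches are shown for 10 members as examples of the ISRE letters next to genes whose levels are described below. RefSeq promoters (GRCm38.p6, the assembly behind mm10) reach from 250 bases before to 50 bases after a gene's start and matched 34 of the 44 members. The letters searched were GAAANNGAAA on both strands, which reads TTTCNNTTTC on the other strand, with overlapping matches counted. Each stretch runs 5′ to 3′ on the gene's strand, and capitals mark the match.
Cxcl10: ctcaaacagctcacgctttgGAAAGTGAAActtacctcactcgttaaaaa
Oas1a: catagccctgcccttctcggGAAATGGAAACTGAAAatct
Trim30a: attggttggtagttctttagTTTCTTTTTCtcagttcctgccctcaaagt
Trim30d: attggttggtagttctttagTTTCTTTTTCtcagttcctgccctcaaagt
Rsad2: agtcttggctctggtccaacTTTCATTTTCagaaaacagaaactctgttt
Ifit3: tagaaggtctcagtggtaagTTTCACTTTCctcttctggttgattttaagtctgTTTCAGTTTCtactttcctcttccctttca
Gbp2: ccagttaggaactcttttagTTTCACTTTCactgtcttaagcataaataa
Isg15: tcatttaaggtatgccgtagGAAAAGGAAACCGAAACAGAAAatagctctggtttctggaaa
Irgm1: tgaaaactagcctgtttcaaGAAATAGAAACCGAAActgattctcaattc
Bst2: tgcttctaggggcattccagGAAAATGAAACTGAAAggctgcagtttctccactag

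The Cxcl10 stretch lies at chr5:92349073-92349122 and the Oas1a stretch at chr5:120907526-120907565, both on the minus strand. In Cxcl10 the match began 213 bases before the start, and in Oas1a the first of 2 overlapping matches began 20 bases before it. The Trim30a (chr7:104465200-104465249) and Trim30d (chr7:104507861-104507910) stretches were identical over 50 bases. Isg15 (chr4:156200855-156200916) held 3 overlapping matches, and Ifit3 (chr19:34583353-34583436, plus strand) held 2 that began 156 and 122 bases before the start. The other stretches lie at chr12:26456543-26456592 for Rsad2, chr3:142620584-142620633 for Gbp2, chr11:48871421-48871470 for Irgm1 and chr8:71537567-71537622 for Bst2. The ISRE letters were present in 21 of the 34 matched members (61.8%), against 3.99% of 27025 genes with a promoter entry. They were present in 17 of the 26 matched members that were called with age and in 4 of the 8 others. These others include Oas3, which held the letters but was too low to be tested. The GAS letters TTCNNNGAA, which read the same on both strands, were present in 9 of 34 (26.5%), against 9.55% of genes. The GAS letters were present in 5 of the 26 matched members called with age and in 4 of the 8 others. Neither split by age call was tested. No entry was matched for Oas1b, Oas2, Usp18, Ifi27, Mx1, Parp14, Dhx58, Rtp4, Mx2 or Zbp1.

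Library totals ran from 42896149 to 57447015 counts. Markers of cortical neurons (8 genes) summed to 4635 to 5173 CPM (library-scaled counts, with TMM factors) in every library, with Gad1 and Neurod6 lower at 10 than at 3 months (the age change averaged over the 2 genotypes) and the other 6 not called. Of 20 libraries 2 stood apart. KI replicate 5 at 10 months had 54206 Xist counts and 1 Ddx3y count, against at most 218 Xist and at least 2382 Ddx3y counts in the other 19 libraries, which goes against the male label. KI replicate 3 at 3 months lay at 55.2 on the second principal component of all tested genes, and the next library at 31.9. Values without these libraries stand beside several results, and were chosen after seeing the data where they are medians, marker sums or counts of groups that do not overlap. T cell markers summed to 1.49 to 5.10 CPM, and choroid plexus markers ranged from 25 to 2220 CPM between libraries with none called. The median choroid plexus sum was 38.2 CPM in KI and 818 CPM in control at 10 months. At 3 months this median was 1045 CPM in KI and 819 CPM in control, and the ranges of all groups overlapped.

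Levels of the members spanned a wide range. Per kilobase of gene model and averaged over the 20 libraries, Ifi27, a small membrane protein, was the highest at 24.2 CPM per kb, followed by Ifitm3 (14.4), Stat2 (9.43), Ifit3 (8.84) and Lgals3bp (8.83). Oasl1 (0.0938) and Oas3 (0.0141) were the lowest. Oas3 had 1 to 8 counts in a library and did not pass the filter on low counts. Zbp1 and Oasl1 passed that filter only through the 10 month libraries, so that their 10 month level had to be the higher one. Counts of members called with age in the fit of all 20 libraries are also given for the other 41.

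Most members were higher at 10 than at 3 months. With the age change averaged over the 2 genotypes, 35 of 43 tested members rose and none fell at an adjusted p under 0.05 (edgeR quasi-likelihood test, Benjamini-Hochberg over 19623 genes). Among all genes tested 8.19% rose and 3.95% fell. The members were chosen with earlier results of these data known, so that these shares are a description and not a test of the list. The median log2 fold change of the members was 0.68, against -0.003 over all genes, and 11 members, Zbp1 among them, rose more than 2-fold. Among the 41 members that passed the filter on their 3 month libraries alone, 33 rose, with a median of 0.68. Every library of 10 months lay above every library of 3 months for 9 members (Ifit3, Oas1a, Mx1, Irgm1, Trim30a, Cxcl10, Lgals3bp, Ifi27 and Xaf1), which was true of 2.07% of all genes. Without both libraries that stood apart this held for 12 members and 2.36% of all genes, and the member median was 0.59 with 34 called. In that fit 40 of 43 members had an unadjusted p under 0.05 (edgeR), against 27.6% of all genes.

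**Figure D1:**
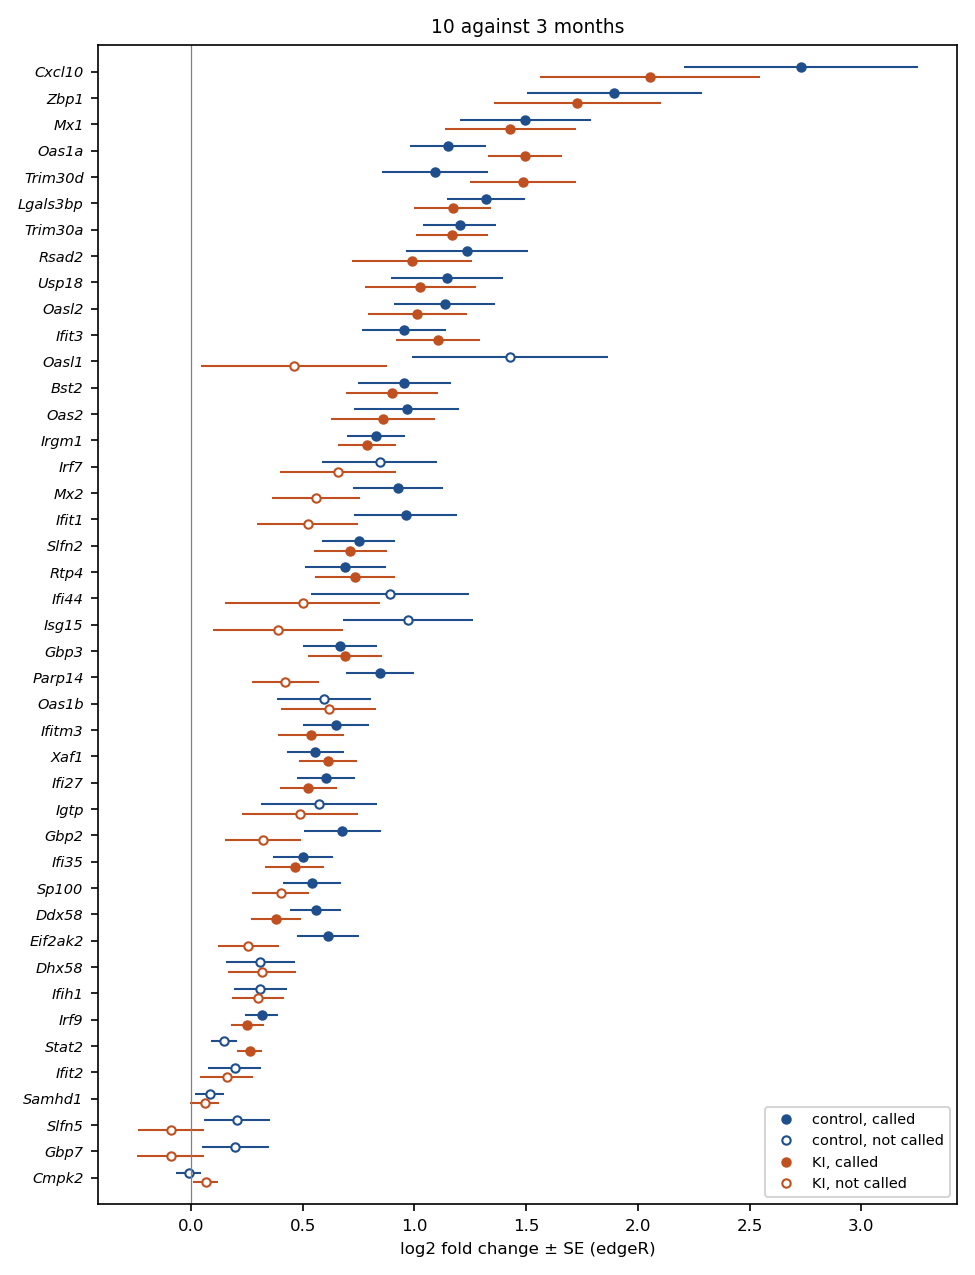
Log2 fold change of each tested member from 3 to 10 months (x axis, with its SE from edgeR) in control and in KI mice, 1 row per gene; filled points passed an adjusted p of 0.05. Points of both genotypes lie to the right of 0 for most genes, from 2.73 for Cxcl10 in control down to values near 0 for Cmpk2, Gbp7 and Slfn5.

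Microglial markers rose over the same interval. All 10 homeostatic markers rose (median log2 fold change 0.90), and their summed level was 331 to 424 CPM at 3 months and 649 to 1005 CPM at 10 months. The 1005 CPM belonged to KI replicate 5, and the other old KI libraries were at 747 to 789 CPM. The 12 plaque-associated markers rose with a median of 2.40, from 418 to 568 CPM at 3 months to 1066 to 1864 CPM at 10 months (up to 1700 CPM without that library). Of 8 astrocyte markers 4 rose (Gfap, S100b, Aldoc and Slc1a3), with a list median of 0.17 and 2.31 for Gfap, the filament protein of reactive astrocytes. Their sum was 4958 to 6392 CPM at 3 months and 6037 to 7223 CPM at 10 months. No marker of these 3 lists was at 0 in every library of a group. The part of these markers in the members' change was not tested. In bulk tissue more cells of a type and more RNA per cell cannot be told apart. Thalamic markers went the other way, with 6 of 7 lower at 10 months (median -1.09), and 2 of 5 erythrocyte markers rose. Of 7 endothelial markers 1 rose (median -0.03), and of 7 meningeal fibroblast markers 1 fell (median -0.29). Among 7 border macrophage markers (median -0.07) and 6 oligodendrocyte markers (median -0.03) 0 were called. Over all genes 8.19% rose and 3.95% fell. The part of these lists was not tested either.

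Of the secreted products, Cxcl10 (chr5:92346638-92348889), a chemokine that attracts activated T cells, had the highest age change. Per-library values are listed in replicate order, 6 to 10 for control and 3 to 7 for KI. Cxcl10 was at 0.252, 0.147, 0.202, 0.1 and 0.0457 CPM in control at 3 months and at 0.189, 0.205, 0.302, 0.224 and 0.244 CPM in KI. At 10 months control libraries were at 0.562, 0.389, 1.30, 2.49 and 0.325 CPM and KI libraries at 0.883, 1.09, 1.42, 1.04 and 0.447 CPM. No 10 month library fell within the 3 month range, although control replicate 9 alone lay far above the other control libraries; without it the old control mean was 0.644 ± 0.449 CPM (SD, n = 4). Cxcl10 rose by a log2 fold change of 2.39 ± 0.36 (SE; adjusted p 7.07e-05), from means of 0.149 to 1.01 CPM in control and of 0.233 to 0.978 CPM in KI. Without control replicate 9 the change was 2.05 (adjusted p 5.9e-05), and in control alone it went from 2.73 to 2.06 (adjusted p 0.00824). Its 3 month libraries held only 2 to 15 counts each, and it overlaps Art3 on the chromosome.

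Lgals3bp (chr11:118392751-118402092) encodes a secreted glycoprotein that binds galectins. Its level over all libraries was 8.83 CPM per kb, against 0.390 CPM per kb for Cxcl10. It measured 13.6, 14.8, 17.6, 13.6 and 10.8 CPM in control and 15.0, 13.2, 19.6, 12.4 and 18.9 CPM in KI at 3 months. The old libraries measured 27.3, 28.4, 49.7, 42.1 and 27.9 CPM in control and 36.8, 31.3, 40.1, 39.3 and 30.7 CPM in KI. The ages did not overlap, and the log2 fold change was 1.25 ± 0.12 (adjusted p 1.84e-07).

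Among the nucleic acid sensors, Zbp1 (chr2:173206612-173218923), which binds Z-form nucleic acid and can start cell death, passed the filter only through its 10 month libraries, so that a higher 10 month level was a condition of its being tested. Control libraries at 3 months were at 0.126, 0.105, 0.112, 0.221 and 0.229 CPM and KI libraries at 0.142, 0.308, 0.101, 0.122 and 0.296 CPM. At 10 months control libraries were at 0.662, 0.503, 0.764, 0.700 and 0.344 CPM and KI libraries at 0.667, 0.594, 1.03, 0.765 and 0.223 CPM. The control ages were separate, while KI replicate 7 at 10 months fell inside the KI 3 month range. Zbp1 rose by 1.81 ± 0.27 (adjusted p 6.3e-05), read with that condition. Ddx58 (RIG-I), a sensor of viral RNA ends, rose by 0.47 ± 0.08 (adjusted p 0.000287), and Ifih1 (MDA5), a sensor of long double-stranded RNA, by 0.30 ± 0.08 (adjusted p 0.0174). Dhx58 (LGP2), which modulates both, gave 0.31 ± 0.11 with an adjusted p of 0.0626. Dhx58 passed without control replicate 6 (0.0182) or KI replicate 7 (0.0251) at 10 months.

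The transcription factors changed less. Stat2 and Irf9, both part of the ISRE-binding complex, rose by 0.21 ± 0.04 (adjusted p 0.00119) and 0.28 ± 0.05 (adjusted p 0.000651). Stat2 lies on chromosome 10, as does Abca7. Irf7 (chr7:141262706-141266481), which amplifies interferon production, measured 1.47, 1.68, 1.66, 0.944 and 1.05 CPM in control and 0.969, 1.23, 1.69, 1.44 and 1.36 CPM in KI at 3 months. At 10 months it measured 1.65, 2.43, 3.18, 3.70 and 1.30 CPM in control and 2.14, 2.45, 2.44, 2.31 and 1.25 CPM in KI. In each genotype at least 1 old library lay within the young range, and Irf7 rose by 0.75 ± 0.18 (adjusted p 0.00803) in the average without a call in either genotype alone (adjusted p 0.077 in control and 0.134 in KI). Irf7 overlaps Phrf1 and Irf9 overlaps Rnf31, and without a known strand setting their counts cannot be separated fully.

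Some proteins of the OAS family, though not all, make short oligoadenylates that activate RNase L. Of the 5 tested genes Oasl1 passed the filter only through 10 month libraries. The other 4 all rose, with a median of 0.99, where 8.19% of all genes rose. Oas1a (chr5:120896256-120907521) was at 0.378, 0.399, 0.472, 0.442 and 0.366 CPM in control and at 0.355, 0.411, 0.564, 0.386 and 0.557 CPM in KI at 3 months. It was at 0.803, 0.847, 1.05, 1.08 and 0.796 CPM in control and at 1.2, 1.19, 1.59, 1.37 and 1.12 CPM in KI at 10 months. The 4 groups fell into 3 levels, with young libraries lowest, old control libraries next and old KI libraries highest, without overlap between these levels. The step between old control and old KI was not called. Of all genes 0.907% had every old KI library above every old control library. The age change of Oas1a was 1.32 ± 0.12 (adjusted p 4.43e-08).

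Oasl2 (chr5:114896936-114912234), a related protein with a ubiquitin-like tail, measured 3.60, 4.16, 3.91, 3.30 and 3.71 CPM in control and 4.92, 4.29, 5.20, 3.09 and 5.72 CPM in KI at 3 months. In old libraries Oasl2 measured 7.30, 6.82, 9.51, 11.3 and 6.13 CPM in control and 9.07, 8.25, 15.0, 9.73 and 4.92 CPM in KI. KI replicate 7 was again the only old library inside the young range, and Oasl2 rose by 1.08 ± 0.16 (adjusted p 5.59e-05). Oasl1 (chr5:114923240-114937915), a near neighbour, had 1 to 26 counts per library, with 0.198, 0.0210, 0.202, 0.0804 and 0.160 CPM in young control and 0.0236, 0.226, 0.242, 0.203 and 0.313 CPM in young KI libraries. Old libraries were at 0.201, 0.389, 0.475, 0.467 and 0.271 CPM in control and 0.275, 0.371, 0.262, 0.328 and 0.186 CPM in KI. The ages overlapped in both genotypes. Oasl1 passed the filter only through 10 month libraries, so that a higher 10 month level was a condition of its being tested. Read with that condition, its log2 fold change of 0.94 ± 0.30 had an adjusted p of 0.0457. That call was lost when any of 13 libraries was left out, with adjusted p up to 0.0877: all but replicates 6 and 10 of old control, 7 of old KI, 6 and 8 of young control and 3 and 7 of young KI. Oas2 rose by 0.91 ± 0.17 (adjusted p 0.000554) and Oas1b, annotated as a polymorphic pseudogene, by 0.61 ± 0.15 (adjusted p 0.00915). Oas1a and Oas1b are close paralogs, so that reads they share could be split between them.

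Mx1 (chr16:97447035-97462907) is a dynamin-like GTPase that blocks influenza virus. It was at 0.719, 0.672, 0.472, 0.442 and 0.618 CPM in young control and at 0.709, 0.554, 0.726, 0.285 and 0.522 CPM in young KI libraries. Old control libraries were at 1.77, 1.44, 1.55, 2.58 and 0.940 CPM and old KI libraries at 1.24, 1.43, 2.36, 1.68 and 0.819 CPM. The ages were fully separate, and Mx1 rose by 1.46 ± 0.21 (adjusted p 3.11e-05). Mx2, annotated as a polymorphic pseudogene, rose by 0.74 ± 0.14 (adjusted p 0.000861).

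**Figure D2:**
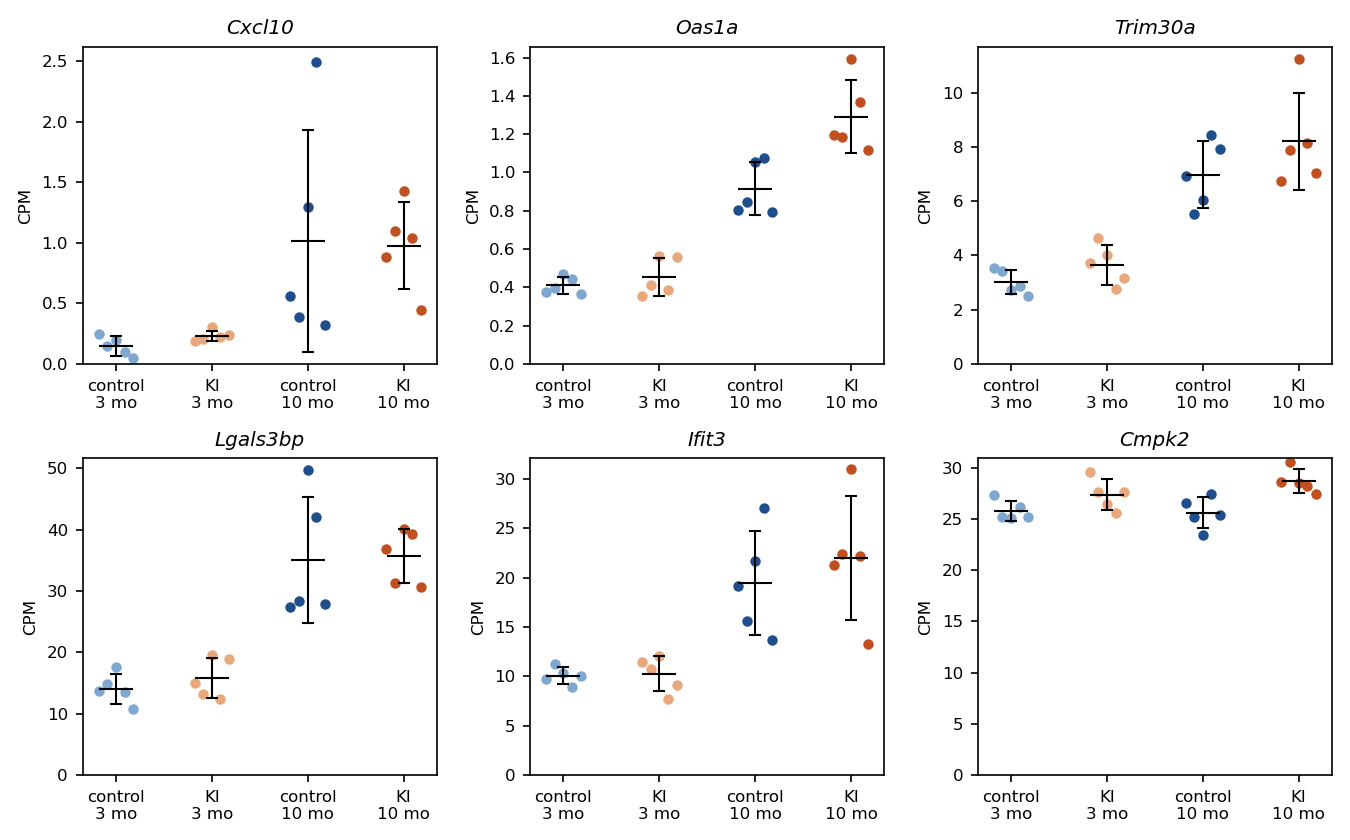
Level in CPM (y axis, from 0) of Cxcl10, Oas1a, Trim30a, Lgals3bp, Ifit3 and Cmpk2 in each library; points are libraries, horizontal bars group means and whiskers the SD of 5 libraries. The 10 month libraries lie above the 3 month libraries for 5 of the genes, Oas1a in old KI libraries starts at 1.12 CPM above the old control maximum of 1.08 CPM, and Cmpk2 stays between 23.4 and 30.6 CPM.

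Isg15 is a ubiquitin-like protein that is attached to other proteins and secreted, and Usp18 removes it and restrains Ifnar2 signalling. Usp18 (chr6:121245906-121270916) measured 1.02, 0.923, 0.921, 0.723 and 0.892 CPM in control and 1.21, 0.945, 1.25, 0.712 and 0.974 CPM in KI at 3 months. At 10 months it measured 1.55, 1.49, 2.29, 3.14 and 1.46 CPM in control and 2.08, 2.24, 2.55, 2.51 and 0.968 CPM in KI. Only KI replicate 7 of the old libraries lay within the young range, and Usp18 rose by 1.09 ± 0.18 (adjusted p 0.000178). Isg15 (chr4:156199424-156200818) measured 0.791, 0.860, 1.39, 1.04 and 0.892 CPM in control and 0.544, 0.986, 1.39, 1.26 and 1.22 CPM in KI at 3 months. At 10 months it measured 1.73, 1.46, 2.52, 3.07 and 0.958 CPM in control and 1.31, 1.56, 2.04, 1.33 and 0.857 CPM in KI. Old and young libraries overlapped, and the averaged change was 0.68 ± 0.21 (adjusted p 0.0335). Isg15 was no longer called without any one of 10 libraries, with adjusted p up to 0.0831: replicates 8 and 9 of old control, 3, 4 and 5 of old KI, 6, 7, 9 and 10 of young control and 4 of young KI.

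IFIT proteins bind viral RNA and hold back its translation. Ifit3 (chr19:34583531-34588731) was at 9.71, 11.2, 10.4, 8.88 and 10.0 CPM in young control and at 11.4, 10.8, 12.1, 7.75 and 9.13 CPM in young KI libraries. Old control libraries were at 19.1, 15.6, 21.7, 27 and 13.7 CPM and old KI libraries at 21.2, 22.4, 30.9, 22.2 and 13.2 CPM. Every old library exceeded every young one, and Ifit3 rose by 1.03 ± 0.13 (adjusted p 1.04e-05). Ifit1 rose by 0.74 ± 0.16 (adjusted p 0.00325). Ifit2 gave 0.18 ± 0.08 (adjusted p 0.19), and passed without KI replicate 3 at 3 months (0.0453).

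Rsad2 (viperin, chr12:26442753-26456452) makes a chain-terminating nucleotide and is a neighbour of Cmpk2 (chr12:26469204-26479835), a mitochondrial nucleotide kinase. Rsad2 measured 1.49, 0.986, 0.764, 0.844 and 0.801 CPM in control and 1.94, 1.11, 1.05, 0.976 and 1.11 CPM in KI at 3 months. Old libraries had Rsad2 at 1.95, 1.62, 2.60, 3.66 and 1.74 CPM in control and 2.28, 2.24, 3.90, 2.30 and 1.51 CPM in KI. Old and young control libraries were separate, whereas KI replicate 3 at 3 months lay above KI replicate 7 at 10 months. Rsad2 rose by 1.11 ± 0.19 (adjusted p 0.000344).

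Cmpk2 was at 27.3, 25.2, 25.1, 26.1 and 25.2 CPM in young control and at 29.6, 27.6, 26.5, 25.6 and 27.6 CPM in young KI libraries. Old control libraries were at 26.5, 25.2, 23.4, 27.4 and 25.4 CPM and old KI libraries at 28.6, 30.6, 28.5, 28.2 and 27.4 CPM. The ranges of the ages overlapped, and the change of Cmpk2 was 0.03 ± 0.04 (adjusted p 0.725). Samhd1, which breaks down deoxynucleotides, gave 0.07 ± 0.05 (adjusted p 0.34). Eif2ak2 (PKR), a kinase that stops translation on double-stranded RNA, rose by 0.44 ± 0.10 (adjusted p 0.00406).

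Trim30a (chr7:104409025-104465193), a ubiquitin ligase family member that restrains Toll-like receptor signalling, was at 3.54, 3.44, 2.74, 2.89 and 2.52 CPM in control and at 3.71, 4.64, 4.01, 2.76 and 3.17 CPM in KI at 3 months. Old libraries had Trim30a at 6.94, 5.51, 6.05, 8.45 and 7.92 CPM in control and at 6.75, 7.88, 11.2, 8.15 and 7.06 CPM in KI. The ages did not overlap, and Trim30a rose by 1.19 ± 0.11 (adjusted p 1.46e-07). Its paralog Trim30d (chr7:104470014-104507849) measured 1.64, 1.93, 1.44, 1.49 and 0.938 CPM in young control and 1.04, 2.07, 1.61, 1.04 and 1.15 CPM in young KI libraries. Old libraries were at 2.01, 2.70, 3.28, 4.09 and 3.78 CPM in control and at 2.87, 3.95, 5.53, 3.85 and 3.18 CPM in KI. Within each genotype the ages were separate, and Trim30d rose by 1.29 ± 0.17 (adjusted p 1.05e-05). Reads shared by these paralogs, whose printed promoter stretches are also identical, could be assigned to either.

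Guanylate-binding proteins and immunity-related GTPases take part in the defence of cells against pathogens. Irgm1 rose by 0.81 ± 0.09 (adjusted p 1.56e-06), Gbp3 by 0.68 ± 0.12 (adjusted p 0.000332) and Gbp2 by 0.50 ± 0.12 (adjusted p 0.00778). Igtp gave 0.53 ± 0.18 (adjusted p 0.0652; 0.0302 without control replicate 7 at 10 months and 0.0479 without KI replicate 7 at 3 months). Gbp7 gave 0.05 ± 0.11 (adjusted p 0.807). Gbp3 and Gbp7 both overlap Gbp5, and Igtp overlaps Irgm2. The membrane proteins Bst2 (tetherin), which holds budding virus at the cell surface, and Ifitm3, which blocks viral fusion in endosomes, rose by 0.93 ± 0.15 (adjusted p 0.000126) and 0.59 ± 0.11 (adjusted p 0.00046).

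Of the remaining members, Parp14, an ADP-ribosyltransferase, rose by 0.63 ± 0.11, Sp100, a nuclear body protein, by 0.47 ± 0.09 and Slfn2, a Schlafen protein, by 0.73 ± 0.12. Slfn5 gave 0.06 ± 0.10 (adjusted p 0.789). Rtp4, Xaf1, Ifi27 and Ifi35 rose by 0.71 ± 0.13, 0.58 ± 0.09, 0.57 ± 0.09 and 0.48 ± 0.09. Adjusted p-values of these 7 called genes ran from 0.000103 for Xaf1 to 0.00118 for Ifi35. Ifi44 gave 0.70 ± 0.25 (adjusted p 0.0724), with 0.0444 without KI replicate 7 at 10 months and 0.044 without KI replicate 5 at 3 months.

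Taken separately, 29 of 43 members rose with age in control mice (of all genes 3.72% rose and 0.357% fell) and 24 of 43 in KI mice (of all genes 5.66% rose and 2.41% fell), and none fell. Among the 41 members passing on 3 month libraries the counts were 28 and 23. The median log2 fold change was 0.75 in control and 0.54 in KI (0.69 and 0.54 among these 41). In both genotypes 23 members rose, Zbp1 among them. Called in control alone were Eif2ak2, Gbp2, Ifit1, Mx2, Parp14 and Sp100, and in KI alone Stat2. Without KI replicate 5 at 10 months the KI count was 18, and without both libraries that stood apart it was 20. In the fit without both, 28 members had an unadjusted p under 0.05 (edgeR), against 21.8% of all genes. Shares of all genes called in these refits are not given here, so the lower counts are a description. Old libraries all lay above young ones for 28 members in control, Zbp1 among them, against 4.56% of all genes. In KI this held for 13 members, against 5.34%. Without both libraries that stood apart the KI figure was 16 members against 9.68% of all genes, and the KI median was 0.45.

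Whether the age change differed between genotypes was tested by the interaction. It was called for 0 of 43 members and for 0% of all genes by edgeR, with 0 members at an unadjusted p under 0.05 (4.5% of all genes) and 0 called by DESeq2 and by limma-voom. The change was the larger one in control for 33 of 43 members, with a median interaction of -0.09. Without both libraries that stood apart 0 were called and 5 members had an unadjusted p under 0.05 (6.41% of all genes). In that refit 6 of 43 lay above 0 and the median was -0.18. It left out old KI replicate 5, the highest of its group for 32 members, and kept replicate 7, the lowest for 31. The age contrasts of control and KI were not shown to differ for any member, even where only 1 of them was called.

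Some calls within 1 genotype were lost when 1 library was left out, and all of these but that of Xaf1 were lost for any of several libraries. In control, Xaf1 lost its call without old replicate 9 (adjusted p 0.0537), Ifit1 without old replicate 9 or young replicate 7 (up to 0.0652) and Oas2 without old replicate 9 or young replicate 6 (up to 0.0665). Sp100 lost it without old replicate 9 or young replicates 6 or 8 (up to 0.0556), and Gbp2 without old replicates 6 or 8 or young replicates 7, 8 or 10 (up to 0.0834). Gbp3 lost it without old replicates 6, 8 or 9 or young replicates 7, 8 or 9 (up to 0.0772), and Ifi35 without old replicates 7, 8 or 9 or young replicates 6, 7 or 9 (up to 0.108). Rtp4 lost it without old replicates 7, 8 or 9 or any young replicate but 10 (up to 0.119). In KI, Rsad2 lost its call without old replicate 5 or young replicates 4, 5 or 6 (up to 0.0803), and Oas2 without old replicate 5 or young replicates 5, 6 or 7 (up to 0.0772). Ifi35 lost it without old replicates 5, 6 or 7 or young replicates 3, 4 or 6 (up to 0.0918), and Ifitm3 without any old replicate but 7 or young replicates 3, 4 or 6 (up to 0.0785). Irf9 lost it without any old KI replicate but 7, young KI replicates 4, 6 or 7, or old control replicates 7 or 9, whose libraries share the estimate of spread (up to 0.101). Ddx58 lost it without any old KI replicate but 7, young KI replicates 4, 6 or 7, old control replicates 9 or 10, or young control replicate 7 (up to 0.106). In the averaged age contrast only Isg15 and Oasl1 lost their calls in this way.

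Libraries of the same age and genotype differed together across many members. The mean of centred log2 CPM over the 43 tested members, given here as a description, was -0.42 ± 0.06 (SD, n = 5) in young control, -0.28 ± 0.16 in young KI, 0.34 ± 0.23 in old control and 0.36 ± 0.27 in old KI libraries. This score includes Zbp1 and Oasl1, which passed the filter only through the 10 month libraries. Old KI replicate 5 scored 0.74 and was the highest of its group for 32 of 43 members. It also had the highest homeostatic (0.79) and plaque-associated (1.97) microglial scores of all libraries. Old KI replicate 7 scored -0.01 and was the lowest of its group for 31 members, while its plaque-associated score of 1.67 was the second highest of its group. In old control, replicate 9 scored 0.66 and was highest for 27 members, and replicate 10 scored 0.12 and was lowest for 18, with the highest plaque-associated score of its group (1.31). Young KI replicate 6 scored -0.54 and was the lowest of its group for 27 members.

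**Figure D3:**
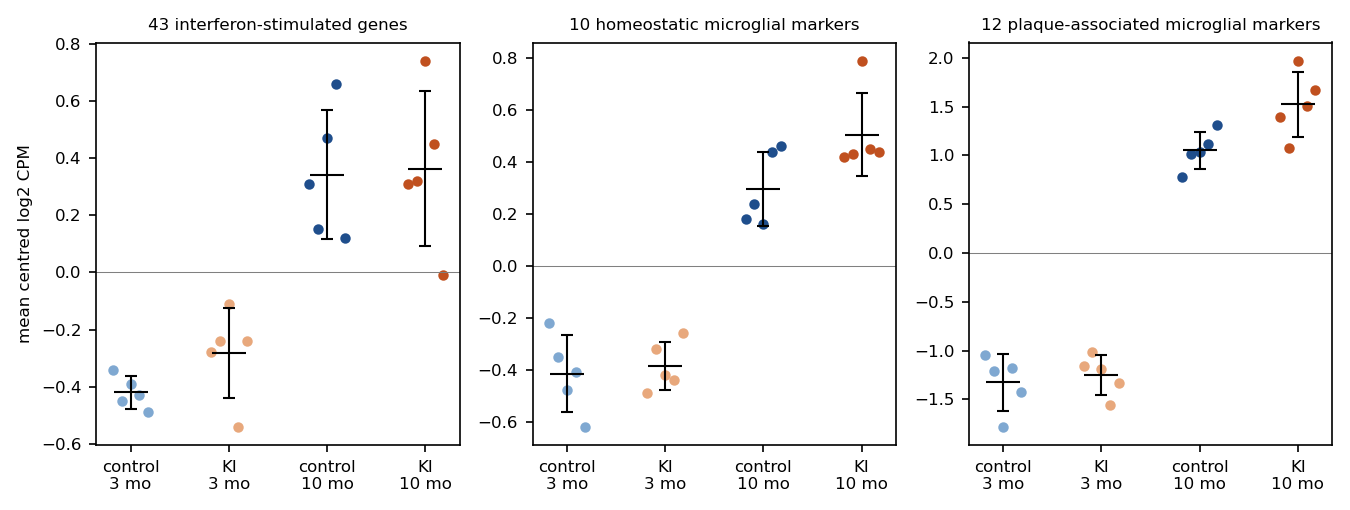
Mean centred log2 CPM per library (y axis) over the 43 tested members, 10 homeostatic and 12 plaque-associated microglial markers; points are libraries, bars group means and whiskers the SD of 5 libraries. Old and young libraries are separate in all 3 panels, but the members (Zbp1 and Oasl1 included) spread from -0.01 to 0.74 within old KI libraries.

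**Figure D4:**
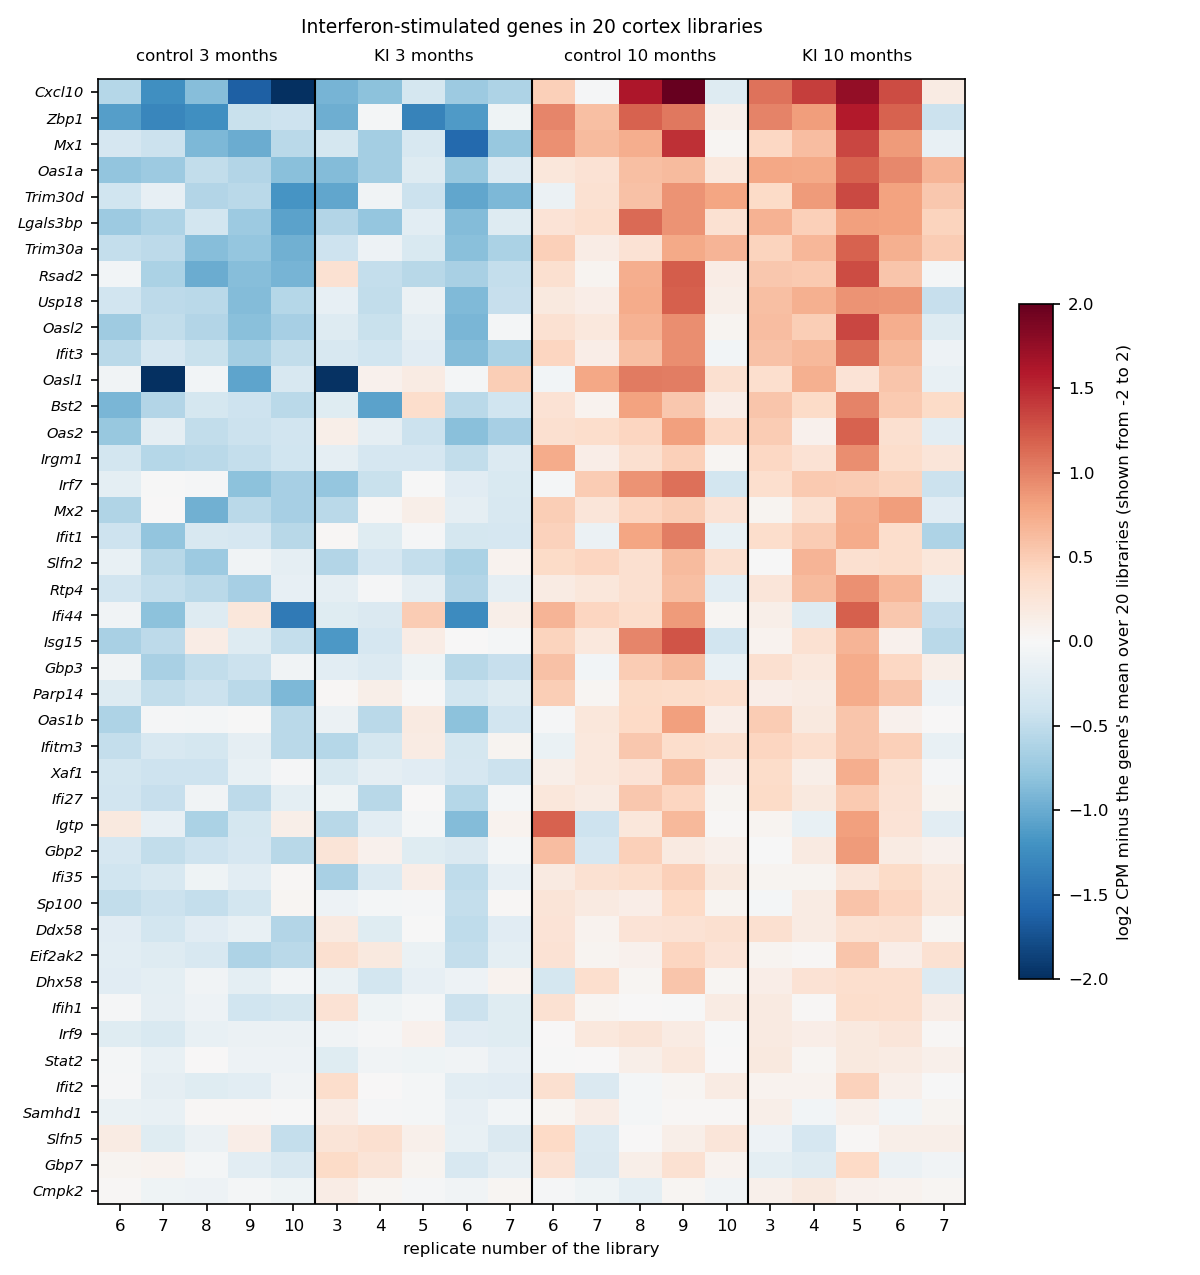
Centred log2 CPM (colour scale) of the 43 tested members (rows) in each of the 20 libraries (columns, by group). Most rows turn from low to high between the 3 and 10 month columns, old KI replicate 5 and old control replicate 9 form the strongest columns, and old KI replicate 7 is paler than its group.

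Genotype gave no called member. KI against control called 0 of 43 members at 3 months (0.0255% of all genes were called), 0 at 10 months (0.0612%) and 0 when averaged over ages (0.0764%) by edgeR, and DESeq2 and limma-voom also called 0 in each. At an unadjusted p under 0.05 there were 3 members at 3 months (3.8% of all genes), 2 at 10 months (7.86%), Oas1a and Cmpk2, and 3 in the average (6.52%), Cmpk2, Oas1a and Trim30a. Median log2 fold changes were 0.15, 0.02 and 0.10, and 34, 24 and 35 of 43 members lay above 0. Without both libraries that stood apart the medians were 0.11, -0.08 and 0.01, with 33, 11 and 25 members above 0, so that the 10 month median changed sign. In that refit members at an unadjusted p under 0.05 numbered 4 (4.94% of all genes), 4 (10.7%) and 2 (9.18%). It left out old KI replicate 5, the highest of its group for 32 of 43 members. Old KI replicate 7, the lowest of that group for 31 members, was kept. The comparisons at both ages draw on separate libraries, and these counts are a description. At 3 months several marker lists leaned with genotype too, with no marker called. Thalamic markers lay above 0 in 7 of 7 (median 0.76, 4 at an unadjusted p under 0.05). So did 7 of 7 markers of meningeal fibroblasts (0.41, 3 at such a p), choroid plexus (0.97, 0) and border macrophages (0.28, 0). Of the erythrocyte markers 0 of 5 lay above 0 (-0.81, 4). The part of these lists was not tested.

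At 3 months the smallest unadjusted p-values belonged to Parp14, Eif2ak2 and Gbp2, all with an adjusted p of 1 (edgeR). Parp14 (chr16:35832874-35871544) was at 4.80, 4.07, 4.27, 3.92 and 3.06 CPM in control and at 5.82, 6.22, 5.70, 4.43 and 4.80 CPM in KI libraries. The groups overlapped at their edges, and the log2 fold change was 0.42 ± 0.15. At 10 months Parp14 measured 8.07, 5.90, 7.51, 7.45 and 7.23 CPM in control and 6.28, 6.42, 9.63, 8.46 and 5.33 CPM in KI, with overlapping groups.

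Eif2ak2 (chr17:78852564-78882573) measured 8.97, 8.65, 8.31, 6.75 and 7.09 CPM in young control and 13.0, 11.9, 9.39, 7.44 and 9.06 CPM in young KI libraries, with 1 KI library inside the control range and a log2 fold change of 0.35 ± 0.14. Old libraries were at 12.7, 10.8, 10.9, 14.0 and 12.5 CPM in control and at 10.7, 10.6, 15.2, 11.3 and 12.8 CPM in KI, and these ranges overlapped. Gbp2 (chr3:142620602-142638008) measured 4.24, 3.78, 4.02, 4.24 and 3.61 CPM in young control and 6.43, 5.69, 4.53, 4.39 and 5.24 CPM in young KI libraries. It was the only member whose young KI libraries all lay above the young control libraries (0.306% of all genes), with a log2 fold change of 0.40 ± 0.17. At 10 months Gbp2 was at 8.23, 4.26, 7.49, 6.08 and 5.77 CPM in control and at 5.34, 6.07, 9.75, 6.01 and 5.70 CPM in KI, with KI replicate 5 highest and the ranges overlapping. Without KI replicate 3 at 3 months the log2 fold changes at 3 months were 0.39 for Parp14, 0.25 for Eif2ak2 and 0.32 for Gbp2 (adjusted p 0.998 each, edgeR). Without both libraries that stood apart, Oasl1 joined Gbp2 in having all young KI libraries above all young control libraries (0.79% of all genes).

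At 10 months Oas1a was the only member whose KI libraries all lay above the control libraries (0.907% of all genes), with a control mean of 0.915 ± 0.14 CPM and a KI mean of 1.29 ± 0.19 CPM (SD, n = 5). Its log2 fold change was 0.50 ± 0.16 with an unadjusted p of 0.0044 and an adjusted p of 0.421 (edgeR). Over the alternatives run, the adjusted p of Oas1a ran from 0.109 to 0.728. Without KI replicate 5 its log2 fold change was 0.41 (adjusted p 0.407). Cmpk2 differed by 0.16 ± 0.06 (adjusted p 0.441), with old KI libraries at 27.4 to 30.6 CPM and old control libraries at 23.4 to 27.4 CPM (0.17 without KI replicate 5, adjusted p 0.379). Isg15 had the next smallest p-value and pointed downward, at -0.46 ± 0.28 (adjusted p 0.733). No member had all KI libraries below all control libraries at either age (0.352% of all genes at 3 months and 0.586% at 10 months). Markers of border macrophages, cells of the vessels and meninges that can also express these genes, summed to 4.78 to 15.6 CPM in old control and 12.5 to 19.0 CPM in old KI libraries with none called (7 of 7 above 0, 2 at an unadjusted p under 0.05, median 0.51). Without both libraries that stood apart 1 of these markers had such a p and the median was 0.36. Plaque-associated microglial markers summed to 1066 to 1418 CPM in old control and 1321 to 1864 CPM in old KI libraries. Of these 12 markers 0 were called (edgeR), 9 had an unadjusted p under 0.05, 11 lay above 0 and the median was 0.46, while without both libraries that stood apart 6 had such a p and the median was 0.40. Of 10 homeostatic microglial markers 0 were called, 1 had an unadjusted p under 0.05 and the median was 0.17 (0.05 without both libraries that stood apart). Choroid plexus markers leaned the other way, with 0 of 7 above 0 (median -0.88, 0 at an unadjusted p under 0.05). Their median interaction was -1.79, with 0 called. The part of these lists in the members' values was not tested.

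**Figure D5:**
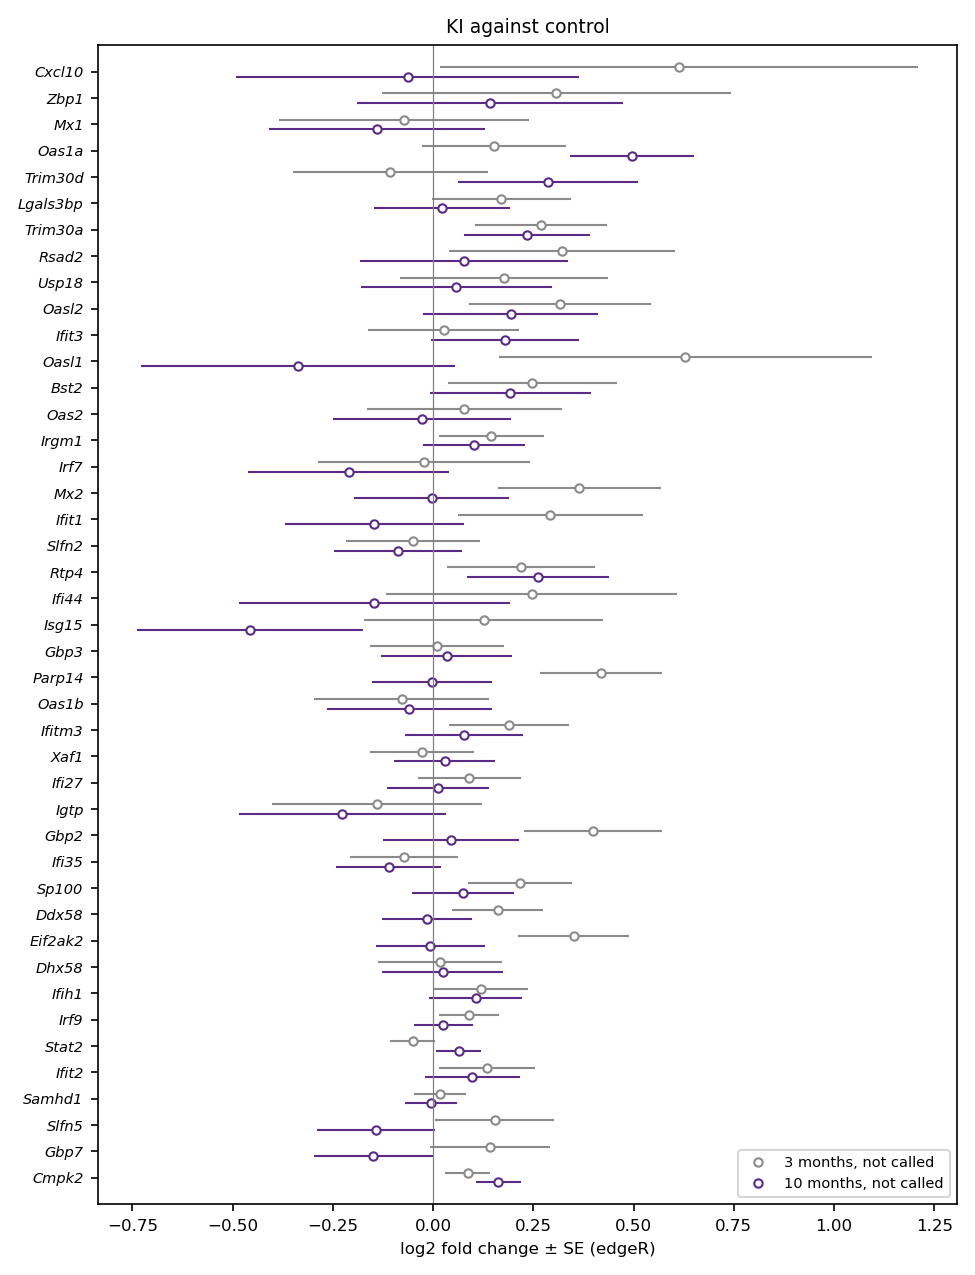
Log2 fold change of KI against control (x axis, with its SE from edgeR) at 3 and at 10 months for each tested member, 1 row per gene. All points are open because none was called, and the SE bars of many genes cross 0; Oas1a at 10 months lies at 0.50.

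The rest of the pathway was measured with the same fit. Of 21 interferon genes 0 passed the filter on low counts, 13 had at least 1 count, and the highest sum over 20 libraries was 11 (Ifne), so that a change in the ligands was not detectable at this depth. Ifnb1 had 5 counts and Ifng 8 counts over all libraries. Among 6 receptor subunits 3 rose with age, where 8.19% of all genes rose. Ifnar2 (chr16:91372783-91405589) was at 14.5, 15.6, 14.9, 13.7 and 14.3 CPM in control and 15.0, 15.6, 16.5, 13.9 and 15.7 CPM in KI at 3 months. At 10 months it was at 17.6, 18.3, 18.7, 18.7 and 19.7 CPM in control and 17.9, 17.8, 20.3, 18.0 and 18.3 CPM in KI. The ages did not overlap and Ifnar2 rose by 0.31 ± 0.04 (adjusted p 2.56e-05). Il10rb and Ifngr1 rose by 0.30 and 0.27.

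The partner subunit Ifnar1 (chr16:91485238-91507441) was at 60.8, 58.3, 56.9, 55.9 and 53.8 CPM in young control and 59.9, 59.4, 58.9, 57.6 and 56.0 CPM in young KI libraries. Old libraries were at 54.6, 55.3, 53.6, 52.9 and 54.8 CPM in control and 51.2, 51.2, 51.8, 56.7 and 59.4 CPM in KI. The ages overlapped and its change was -0.09 ± 0.04 (adjusted p 0.107, or 0.0276 without KI replicate 7 at 10 months). In the JAK-STAT and IRF list 5 of 10 genes rose (8.19% of all genes), among them Irf8 (1.55) and Irf5 (1.16), factors that microglia express, and Irf1 (0.39).

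Among 13 genes of upstream sensing 7 rose (8.19% of all genes), led by Tlr7 (1.22), the endosomal RNA receptor, its chaperone Unc93b1 (0.78), the DNA receptor Tlr9 (0.73) and the cytosolic DNA sensor Aim2 (0.70). Tlr7 lies on chromosome X and was at 16.1 CPM in old KI replicate 5, the library with the Xist counts. The other old libraries were at 6.17 to 9.73 CPM and the young ones at 2.84 to 4.62 CPM. The call of Mb21d1 (cGAS, 0.43), also among the 7, was lost without any of 7 libraries (adjusted p up to 0.0688): replicates 9 and 10 of old control, 4 and 5 of old KI, 6 and 8 of young control and 6 of young KI. The adaptor Traf3, named after its value was seen, fell by 0.29. Of 10 negative regulators 1 rose, the phosphatase Ptpn6 (1.56), which microglia express; this share is near the 8.19% of all genes and is no result about the list.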

How the data were processed

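The values were raw counts of 43346 genes in 20 cortex libraries, deposited by the authors in a single table. Genes were placed on mm10, per the submitters' processing notes. How reads were aligned and counted, with which strand setting and annotation, is not given in the sources used here. Library totals were 42896149 to 57447015 counts. Total RNA was DNase-treated, per the labels' protocols.

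Counts were filtered with filterByExpr, scaled by TMM (factors 0.972 to 1.03) and tested with edgeR 4.0.16 (R 4.3.3) in a robust quasi-likelihood fit of 4 group means over 20 libraries (16 residual degrees of freedom, 19623 of 43346 genes). Benjamini-Hochberg adjustment was made within each of 7 contrasts, and a call is an adjusted p under 0.05. CPM are counts scaled to a common library total with TMM factors, and the listed SE are from the fit. Scores average log2 CPM (prior count 2) after centring each gene. The code was tested on simulated data.

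Members and gene lists were chosen with earlier results of these data known. Each member is named. Values per library are given for the 12 called members of largest averaged age change, for members called in a genotype or interaction contrast or among the 3 of smallest p at either age, and for Irf7, Ifnar1 and Ifnar2. One gene of the wider pathway is not reported here. Other list genes are counted, with at most 4 named by size among those called.

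Alternatives were RLE scaling, other filters, DESeq2 1.42.0, limma-voom (limma 3.58.1), fits of only the compared libraries, a replicate block, a threshold of 0.10, and leaving out libraries. No pair of libraries was a duplicate: the chi-square per gene between replicates was 11 to 126.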

Additional observations from a re-analysis of the deposited data

Results flagged for a closer look

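Each result here had 1 library of a group of 5 far from the other 4 (the gap to the nearest exceeded 0.71 of the group's range). Of 192 groups examined 14 met this, and chance alone flags about 5% of groups. The highest old KI library was replicate 5, which also carried the Xist counts, for 6 genes. Ifit2 was at 20.1 CPM there (next 15.5), Gbp2 at 9.75 (6.07), Gbp7 at 8.15 (5.87), Irgm1 at 25.9 (18.2), Bst2 at 5.83 (4.30) and the receptor subunit Ifnar2 at 20.3 (18.3). Old KI replicate 7 was low for Irf7, at 1.25 CPM against 2.14 in the next library.

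Old control replicate 9 was high for Oas2 at 1.69 CPM (next 1.28) and for Xaf1 at 11.3 CPM (8.85). Ddx58 was low in old control replicate 7 at 7.53 CPM (8.65), and Oas3, with few counts, was high in old control replicate 6 at 0.14 CPM (0.0915). At 3 months Rsad2 was high in KI replicate 3 at 1.94 CPM (1.11). Sp100 was high in control replicate 10 at 5.33 CPM (4.02) and low in KI replicate 6 at 3.72 CPM (4.80).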

How the results depend on the processing

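All counts of called members stayed within 1.5 times their values above under the alternatives run, and no direction reversed among the gene results recomputed. Members rising with age numbered 26 to 32 in control, 18 to 28 in KI and 30 to 38 in the average over the alternatives that kept all libraries. The lowest KI value, 18, came from fitting the KI libraries alone. DESeq2 called 32, 25 and 37, limma-voom 29, 23 and 35, and without a filter on low counts edgeR called 28, 21 and 34. Leaving out 1 library at a time gave 22 to 31, 18 to 26 and 33 to 37, the lowest control value without old control replicate 9. Without both libraries that stood apart the counts were 31, 20 and 34. The counts in this section include Zbp1 and Oasl1 where they were tested. Shares of all genes called under each alternative are not given here, so the counts are a description. Genotype and interaction counts were 0 in every alternative. With the replicate number as a block the counts were 26, 24 and 35. Of 18 pairs of libraries sharing a number, 3 correlated above 0.1 (from -0.343 to 0.284), so the numbers are not taken to pair the libraries. Depth limits what can be said of Oas3, Oasl1, Zbp1, young Cxcl10 and the interferon ligands.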
